A study of Mus musculus with 7 samples.

Results

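The genes described here are 8 markers of mononuclear phagocytes, out of 18938 genes measured. They are the complement genes C1qa, C1qb and C1qc, the receptors Mrc1, Adgre1 and Csf1r, the lysosomal glycoprotein gene Cd68 and the dendritic cell receptor gene Clec9a. They were chosen by name, with no threshold on a measured value, and each is read by 1 probe set. RNA was measured in prostates of Nkx3.1-/- mice on a recombinant inbred B6/129 background that drank either 5 mM N-acetylcysteine (NAC), an antioxidant and glutathione precursor, or plain water as vehicle, from weaning at 3 weeks of age. Treatment lasted 13 weeks and the mice were 16 weeks old at collection. There were 4 NAC arrays (replicates 1 to 4) and 3 vehicle arrays (replicates 1, 2 and 4), with the RNA of 1 mouse on each Affymetrix Mouse Gene 1.0 ST array. All mice lacked both copies of Nkx3.1, so no array shows these genes in a prostate with the gene. The extraction protocol names the anterior prostate, whereas the tissue label says whole prostate. Cages held either NAC or vehicle mice, so cage and treatment cannot be told apart. Littermates were split between the treatments according to the methods, but the labels do not name litters, so litter was not modelled. By the methods, mice received BrdU into the peritoneal cavity before collection, for histology.

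Values are log2 expression, normalized across arrays, on which a difference of 1 is a doubling. The median gene lay between 7.16 and 7.20 on each array, and the arrays were alike, with r over all genes (which are no replicates) of 0.995 to 0.998 for any 2 of them. The prostate secretory gene Pbsn was at 12.65 to 12.95 on the NAC arrays and at 12.63 to 12.75 on the vehicle arrays, and the luminal keratin Krt8 was at 11.96 to 12.12 on the NAC arrays and at 11.96 to 12.05 on the vehicle arrays, so both markers of the tissue were present on every array. NAC replicate 3 carried transcripts of other tissues, with 10 lung epithelial genes on average 1.43 and 12 adipocyte genes on average 1.20 log2 units above the mean of the 7 arrays. NAC replicate 1 was high in macrophage and basal epithelial genes and low in seminal vesicle genes. In whole tissue, fewer cells of a type and less RNA per cell cannot be told apart.

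Tissue macrophages live in the stroma and epithelium of most organs, where they engulf dying cells and debris and present antigen. They depend on signals through the receptor encoded by Csf1r, and carry the adhesion receptor EMR1, encoded by Adgre1, the late endosomal glycoprotein CD68 and, in many resident populations, the mannose receptor encoded by Mrc1. They are also a main source of C1q, the recognition unit of the classical complement pathway, which binds antibody complexes and apoptotic cells. Clec9a encodes DNGR-1, a lectin-like receptor for actin filaments exposed on dead cells, and marks the type 1 conventional dendritic cells (cDC1) that cross-present antigen to cytotoxic T cells.

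The C1q genes lie side by side on mouse chromosome 4 (GRCm38.p6, chr4:136880126-136898844, a span of 18719 bp), with C1qb at 136880126-136886200, C1qc at 136889801-136892936 and C1qa at 136895916-136898844. Clec9a lies on chromosome 6 (chr6:129408862-129424764), Mrc1 on chromosome 2 (chr2:14229414-14332023), Cd68 on chromosome 11 (chr11:69664213-69666170) and Adgre1 on chromosome 17 (chr17:57358581-57483529). Promoter windows of 300 bases, from 250 before to 50 after the gene start, were taken from RefSeq on GRCm38.p6, with a window for 5 of the 8 genes. The windows of C1qb and C1qc, neighbours that averaged higher with NAC, and of Clec9a, which averaged lower, are shown 5′ to 3′ on the strand of the gene. Capitals mark GAGGAA, the core of the site of the myeloid factor PU.1, or its complement on the other strand.
C1qb promoter, chr4:136886151-136886450, minus strand: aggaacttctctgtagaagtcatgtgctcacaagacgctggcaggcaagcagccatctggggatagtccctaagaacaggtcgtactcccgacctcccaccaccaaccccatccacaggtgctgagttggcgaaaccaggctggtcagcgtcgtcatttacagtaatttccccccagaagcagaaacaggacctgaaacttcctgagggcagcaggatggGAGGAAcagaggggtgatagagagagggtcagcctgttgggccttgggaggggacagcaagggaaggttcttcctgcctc
C1qc promoter, chr4:136892865-136893164, minus strand: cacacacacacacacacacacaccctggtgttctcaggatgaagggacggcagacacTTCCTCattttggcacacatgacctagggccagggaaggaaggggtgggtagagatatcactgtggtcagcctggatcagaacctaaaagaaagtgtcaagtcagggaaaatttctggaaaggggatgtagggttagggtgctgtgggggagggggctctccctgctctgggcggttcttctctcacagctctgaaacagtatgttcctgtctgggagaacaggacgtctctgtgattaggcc
Clec9a promoter, chr6:129408612-129408911, plus strand: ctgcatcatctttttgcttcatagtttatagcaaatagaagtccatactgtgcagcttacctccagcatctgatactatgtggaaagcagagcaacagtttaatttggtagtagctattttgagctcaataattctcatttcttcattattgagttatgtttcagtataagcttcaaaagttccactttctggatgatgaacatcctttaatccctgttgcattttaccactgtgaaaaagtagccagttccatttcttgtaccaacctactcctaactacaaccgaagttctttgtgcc
C1qb held the motif 1 time, starting 30 bases before the gene start, and C1qc 1 time on the other strand, at 193 bases before it. Mrc1 held it 3 times and Cd68 2 times, and the Clec9a window held no match. Of all 32851 windows of this length, 28.3% held the motif on either strand. A match is a description of these letters and not a binding site.

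Of the markers, 7 averaged slightly higher with NAC and Clec9a averaged lower, but none of the 8 differences passed the test across all genes. The 7 macrophage markers had log2 fold changes from 0.08 (Cd68) to 0.31 (Mrc1), and that of Clec9a was -0.21. The median over the 8 genes was 0.13, against 0.00 over all genes. With limma, 0 of the 8 genes and 0% of the 18938 genes had an adjusted p under 0.05. At an unadjusted p under 0.05, 1 of the 8 genes (Clec9a) was lower, where 2.53% of all genes were, and 0 were higher, where 1.89% of all genes were, 4.41% in either direction. Of the 8 genes, 7 had a positive and 1 a negative log2 fold change, where 49.6% and 50.4% of all genes did. All NAC arrays lay above all vehicle arrays for 1 of the 8 genes (C1qb), against 1.29% of all genes, and below them for 1 (Clec9a), against 2.18%, or 3.47% of all genes in either direction. Without NAC replicate 1, 6 of the 8 genes were higher and the median was 0.05. Without vehicle replicate 4 the median was 0.20.

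**Figure D1:**
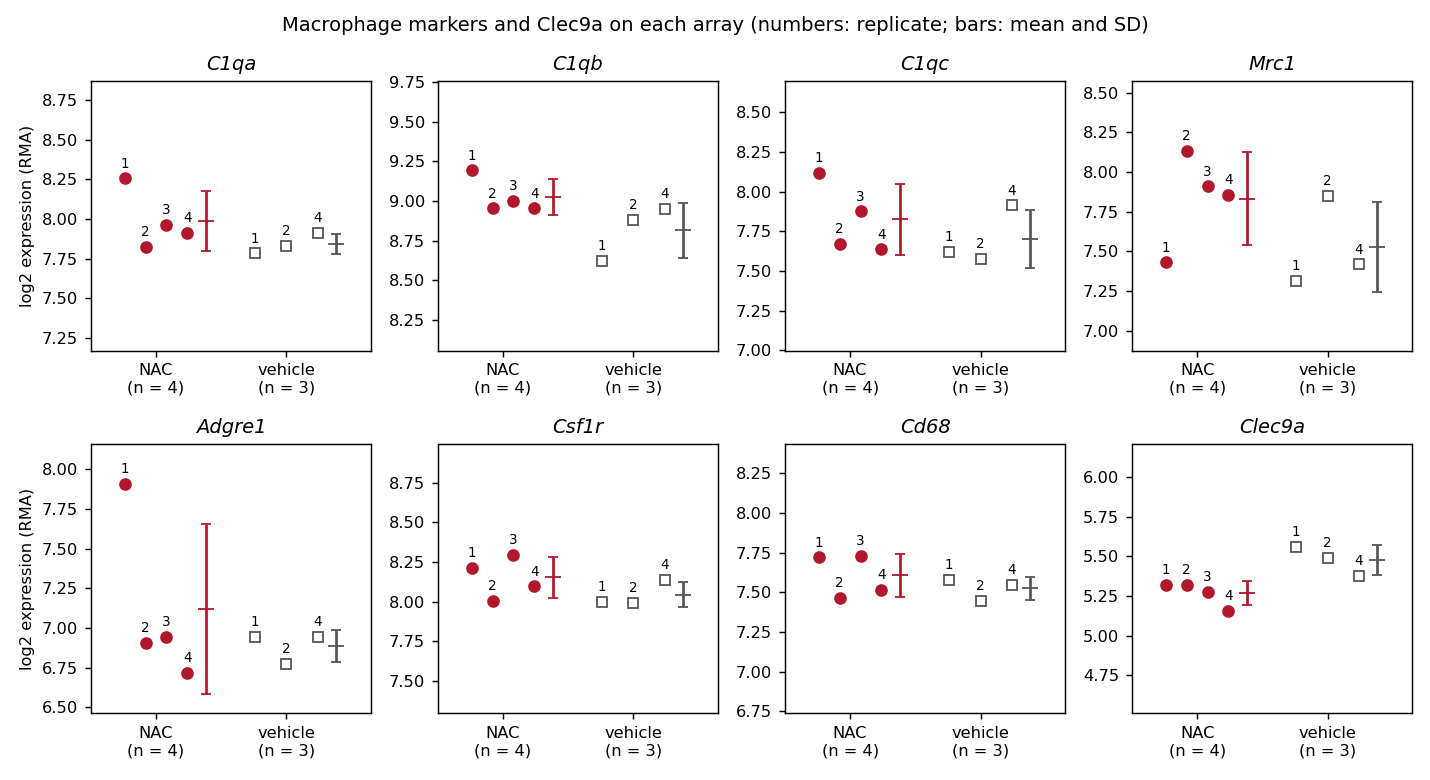
The y axes give log2 expression for each gene, each over a span of equal height, and the x axis the group, with NAC arrays as filled red circles (n = 4) and vehicle arrays as open grey squares (n = 3). Numbers are replicates, and bars the mean and SD. NAC replicate 1 is the highest array for the C1q genes and Adgre1, at 7.91 for Adgre1, while the NAC arrays of Clec9a, from 5.16 to 5.32, lie below the vehicle arrays.

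C1qa, C1qb and C1qc encode the A, B and C chains that assemble into C1q. C1qa was at 8.26, 7.82, 7.96 and 7.91 on NAC replicates 1 to 4, and at 7.78, 7.83 and 7.91 on vehicle replicates 1, 2 and 4. The groups overlapped, with NAC replicate 1 alone well above the rest. Its mean was 7.99 ± 0.19 (SD, n = 4) with NAC and 7.84 ± 0.06 (SD, n = 3) with vehicle, a log2 fold change of 0.15 with a 95% confidence interval from -0.10 to 0.39 (limma, adjusted p = 0.827).

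C1qb was at 9.19, 8.95, 9.0002 and 8.95 with NAC, and at 8.62, 8.88 and 8.95 with vehicle. The groups did not overlap, but the lowest NAC arrays and vehicle replicate 4 were only 0.0030 log2 units apart, and vehicle replicate 1 was the low array. C1qb averaged 9.02 ± 0.11 (SD, n = 4) with NAC and 8.82 ± 0.17 (SD, n = 3) with vehicle, a log2 fold change of 0.21 with an interval from -0.02 to 0.44 (limma, adjusted p = 0.827). C1qc was at 8.12, 7.67, 7.88 and 7.64 with NAC, and at 7.62, 7.58 and 7.91 with vehicle. Here vehicle replicate 4 was above 3 of the NAC arrays. The log2 fold change of C1qc was 0.12 with an interval from -0.21 to 0.45 (limma, adjusted p = 0.860).

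NAC replicate 1 was the highest array for all 3 C1q chains. On average they were 0.31 above their 7-array mean on that array, between -0.06 and 0.07 on NAC replicates 2 to 4, and from -0.20 to 0.05 on the vehicle arrays. Without it the log2 fold changes were 0.06 for C1qa, 0.15 for C1qb and 0.02 for C1qc. Without vehicle replicate 1, that of C1qb was 0.11.

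Adgre1 encodes EMR1, an adhesion receptor with epidermal growth factor repeats that marks mouse macrophages. It was at 7.91 on NAC replicate 1, at 6.90, 6.95 and 6.72 on NAC replicates 2 to 4, and at 6.95, 6.77 and 6.95 on the vehicle arrays. Apart from NAC replicate 1, which was 0.96 above the next array, the groups covered the same range. The log2 fold change was 0.23 with an interval from -0.43 to 0.89 (limma, adjusted p = 0.866), and -0.03 without NAC replicate 1. The same value, 6.95, stood on 3 arrays, so that small differences cannot be read for this gene.

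Csf1r encodes the receptor tyrosine kinase for the growth factors CSF1 and IL-34, on which most tissue macrophages depend. The gene lies at chr18:61105572-61131139 (GRCm38.p6). It was at 8.21, 8.01, 8.30 and 8.10 with NAC, and at 8.0005, 7.99 and 8.14 with vehicle. NAC replicates 1 and 3 were above every vehicle array and the other NAC arrays were among them. The log2 fold change was 0.11 with an interval from -0.07 to 0.29 (limma, adjusted p = 0.827). Cd68, a heavily glycosylated relative of the LAMP proteins of lysosomes, was at 7.72, 7.47, 7.73 and 7.51 with NAC, and at 7.58, 7.45 and 7.55 with vehicle. NAC replicates 1 and 3 were again the highest arrays. Its log2 fold change was 0.08 with an interval from -0.11 to 0.27 (limma, adjusted p = 0.845). Without NAC replicate 3 the log2 fold changes were 0.06 for Csf1r and 0.04 for Cd68, and without NAC replicate 1 that of Cd68 was also 0.04.

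Mrc1 encodes the mannose receptor (CD206), an endocytic lectin of resident and alternatively activated macrophages. It was at 7.43, 8.13, 7.91 and 7.86 with NAC, and at 7.31, 7.85 and 7.42 with vehicle. NAC replicates 2 to 4 were above every vehicle array, replicate 4 only barely, and the exception was NAC replicate 1, the array on which C1q and Adgre1 were highest. Mrc1 averaged 7.83 ± 0.29 (SD, n = 4) with NAC and 7.53 ± 0.29 (SD, n = 3) with vehicle, a log2 fold change of 0.31 with an interval from -0.15 to 0.76 (limma, adjusted p = 0.827). It was 0.44 without NAC replicate 1, 0.47 without vehicle replicate 2 and 0.20 without vehicle replicate 1 or NAC replicate 2.

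Clec9a was at 5.32, 5.32, 5.28 and 5.16 on the NAC arrays, and at 5.56, 5.49 and 5.37 on the vehicle arrays. All 4 NAC arrays were below all 3 vehicle arrays, with a gap of 0.06 between NAC replicates 1 and 2 and vehicle replicate 4. It averaged 5.27 ± 0.08 (SD, n = 4) with NAC and 5.48 ± 0.09 (SD, n = 3) with vehicle, a log2 fold change of -0.21 (0.867-fold) with an interval from -0.35 to -0.06. By unadjusted p it was in place 103 of the 18938 genes, and its adjusted p from limma was 0.827. Leaving out any 1 array gave log2 fold changes from -0.26 to -0.16. Clec9a was below the 40th percentile of mean expression, among the dim genes, for which summarized values do not show how far signal exceeded background.

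**Figure D2:**
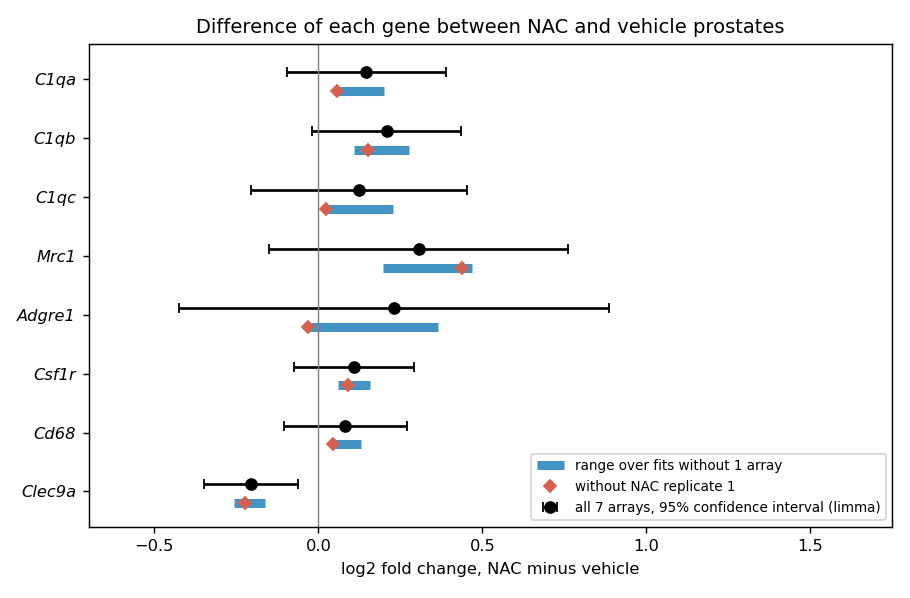
The x axis gives the log2 fold change, NAC minus vehicle, for each gene on the y axis, with black points for the fit over all 7 arrays and their 95% confidence interval, blue bars for the range over the fits that leave out 1 array, and orange diamonds for the fit without NAC replicate 1. The interval of Clec9a lies below 0, from -0.35 to -0.06, and without NAC replicate 1 Adgre1 is at -0.03.

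The height of C1q and Adgre1 on NAC replicate 1 was shared by some other myeloid genes, but not by all lists of them. On that array a list of other macrophage genes averaged 0.18 above its 7-array mean, whereas neutrophil genes averaged -0.06 and C-type lectin genes -0.01. In all, 23 genes were more than 0.5 log2 units above every other array on NAC replicate 1, a number within the range of the other NAC arrays (16 on replicate 2, 67 on replicate 3 and 25 on replicate 4), and Adgre1 was in place 7 of them by size of the gap. Prg4, which encodes lubricin, was at 8.98 there and at most at 6.52 elsewhere, and the lipoxygenase gene Alox15 was at 8.82 and at most at 6.86. Saa3, an acute phase protein gene of macrophages, was at 7.13 and at most at 5.47, and Cd5l, a secreted macrophage protein gene, at 5.93 and at most at 4.80. The lysozyme gene Lyz2 was at 11.02 and at most at 10.13, and the complement receptor gene Vsig4 at 5.13 and at most at 4.33. Itgam and Itgb2, which form complement receptor 3, were at 7.87 and 7.44, against at most 7.27 and 6.89 on the other arrays. These genes were chosen after their values were seen.

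Prg4, Alox15, Cd5l, Vsig4 and Itgam are also known from resident macrophages of the mouse peritoneal cavity. A list of markers of those cells, added after the data were examined, had 14 measured genes, of which 10 were highest on NAC replicate 1. Of them 6 were among the 23 genes, and 4 of the other 8 were highest on that array. Of all 18938 genes, 2508 were highest on NAC replicate 1. Averaged over those 8, the deviation was 0.13 on NAC replicate 1, between -0.06 and 0.04 on NAC replicates 2 to 4, and from -0.06 to 0.00 on the vehicle arrays. These 8 leave out the genes already picked for being high on NAC replicate 1. The list itself was drawn up after the values were seen, so these 8 are no independent check. Gata6, the transcription factor that defines resident peritoneal macrophages, was at 7.07, 7.01, 7.24 and 7.13 on the NAC arrays, and at 7.03, 7.07 and 7.09 on the vehicle arrays, so that it was not highest on NAC replicate 1. Timd4 and Icam2 of the list were not highest there either. Timd4 was at 6.23 there and 6.33 on vehicle replicate 4, and Icam2 at 6.45 there and 6.77 on NAC replicate 4. Some lists of other cell types also had their highest or lowest mean on NAC replicate 1. Genes of basal epithelium averaged 0.34 above their mean there, between -0.23 and 0.14 on NAC replicates 2 to 4, and from -0.22 to 0.09 on the vehicle arrays, with 4 of 5 highest on that array, among them the keratin genes Krt5 at 9.40 and Krt15 at 9.19. On NAC replicate 3 these keratin genes were nearly as high, at 9.23 and 9.06. The basal marker Trp63 was highest on vehicle replicate 1, at 9.04, against 8.91 on NAC replicate 1. Genes of the seminal vesicle, a neighbouring gland, had their lowest mean deviation on that array, at -1.43, against -0.53 to 0.62 on the other NAC arrays and 0.14 to 0.64 on the vehicle arrays. They averaged lower with NAC in 8 of 8 genes, with a median log2 fold change of -0.77, which was -0.46 without NAC replicate 1, although 0 had an adjusted p under 0.05 with limma. The part of these transcripts in the values of C1q and Adgre1 was not tested.

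Other genes of macrophages had a median close to no difference. Of 29 measured genes of a textbook list, 20 were higher and 9 lower with NAC. Their median log2 fold change was 0.06, with a range from -0.09 to 0.62 (Lyz2, standard error 0.40), and 0 passed the limma test, adjusted or unadjusted. Pf4, a chemokine of platelets and macrophages, had 0.29 (standard error 0.15), the Fc receptor gene Fcgr3 0.22 (standard error 0.12), the folate receptor gene Folr2 0.15 (standard error 0.09) and the lipid receptor gene Trem2 0.15 (standard error 0.09). Pf4 was highest on NAC replicate 1, at 7.43, and Folr2 and Trem2 were highest on NAC replicate 3, at 7.82 and 7.67. The mean deviation over the list was 0.18 on NAC replicate 1, between -0.04 and 0.04 on NAC replicates 2 to 4, and from -0.08 to -0.02 on the vehicle arrays.

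The ligands of the CSF1 receptor and the regulators of myeloid cells gave 11 genes higher and 5 lower out of 16 (median 0.03), and 14 and 2 without vehicle replicate 2. Csf1, the main ligand, was at 7.17, 8.27, 7.29 and 8.07 on the NAC arrays, and at 7.09, 7.84 and 6.99 on the vehicle arrays. NAC replicates 2 and 4 and vehicle replicate 2 were at 7.84 or more and the other arrays at 7.29 or less, so that both treatments lay on both sides. Its log2 fold change was 0.39 (standard error 0.34). Il34, the other ligand, was at 6.54, 6.57, 6.75 and 6.66 with NAC, and at 6.63, 6.44 and 6.59 with vehicle, for which the log2 fold change was 0.08 (standard error 0.07). Spi1, which encodes PU.1, had 0.06 (standard error 0.04) and the neutrophil growth factor receptor gene Csf3r 0.33 (standard error 0.20).

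In the complement system, 17 of 26 measured genes were higher and 9 lower with NAC, and the median was 0.05 (0.02 without NAC replicate 3). C1q acts together with the proteases C1r and C1s, and the genes of both averaged lower with NAC while the C1q genes averaged higher. C1ra was at 8.95, 8.95, 8.86 and 8.65 on the NAC arrays, and at 9.05, 8.96 and 9.10 on the vehicle arrays, with a difference (log2 fold change) of -0.18 (standard error 0.08, limma adjusted p = 0.827). C1s1 was at 8.32, 8.62, 8.72 and 8.15 with NAC, and at 8.71, 8.72 and 8.85 with vehicle, with a difference (log2 fold change) of -0.31 (standard error 0.14). For C1ra all NAC arrays were below all vehicle arrays, by a narrow margin, as they were for 2.18% of all genes. For C1s1 the groups overlapped at NAC replicate 3. Cfb, factor B of the alternative pathway, had 0.19 (standard error 0.08), Cd55, which speeds the decay of convertases, -0.18 (standard error 0.07), and C8a, of the membrane attack complex, 0.12 (standard error 0.05). Cfp, which encodes the stabilizing factor properdin, had 8.25 on NAC replicate 1, between 7.51 and 7.71 on NAC replicates 2 to 4, and 7.31 to 7.67 on the vehicle arrays. Of the 26 genes, 1 (Cfb) had an unadjusted p under 0.05 with limma, where 4.41% of all genes did, and 0 an adjusted one.

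Among 8 proteins described as receptors or partners of C1q, 7 genes were higher and 1 lower (median 0.06). Cd93, of endothelium and myeloid cells, was at 7.16, 7.17, 7.32 and 7.05 with NAC, and at 6.83, 7.16 and 6.73 with vehicle, with a difference (log2 fold change) of 0.27 (standard error 0.11). The inhibitory receptor genes Lair1 and Cd33 had 0.21 (standard error 0.10) and 0.22 (standard error 0.12), and the engulfment receptor gene Megf10 had 0.06 (standard error 0.05). Relatives of the other markers were mixed. Of 16 further C-type lectin genes, the family of Mrc1 and Clec9a, 12 were higher and 4 lower (median 0.02), and 9 and 7 without NAC replicate 2. Clec4e, the receptor Mincle, had 0.52 (standard error 0.20) and Clec2d -0.17 (standard error 0.07). Of 8 relatives of Cd68 and Adgre1, 5 were higher and 3 lower. Lamp5 had 0.22 (standard error 0.06) and Adgre5 0.12 (standard error 0.06), and the lysosomal membrane genes Lamp1 and Lamp2 had -0.08 and -0.09 (standard error 0.04 each). With limma 0 genes of these lists had an adjusted p under 0.05.

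**Figure D3:**
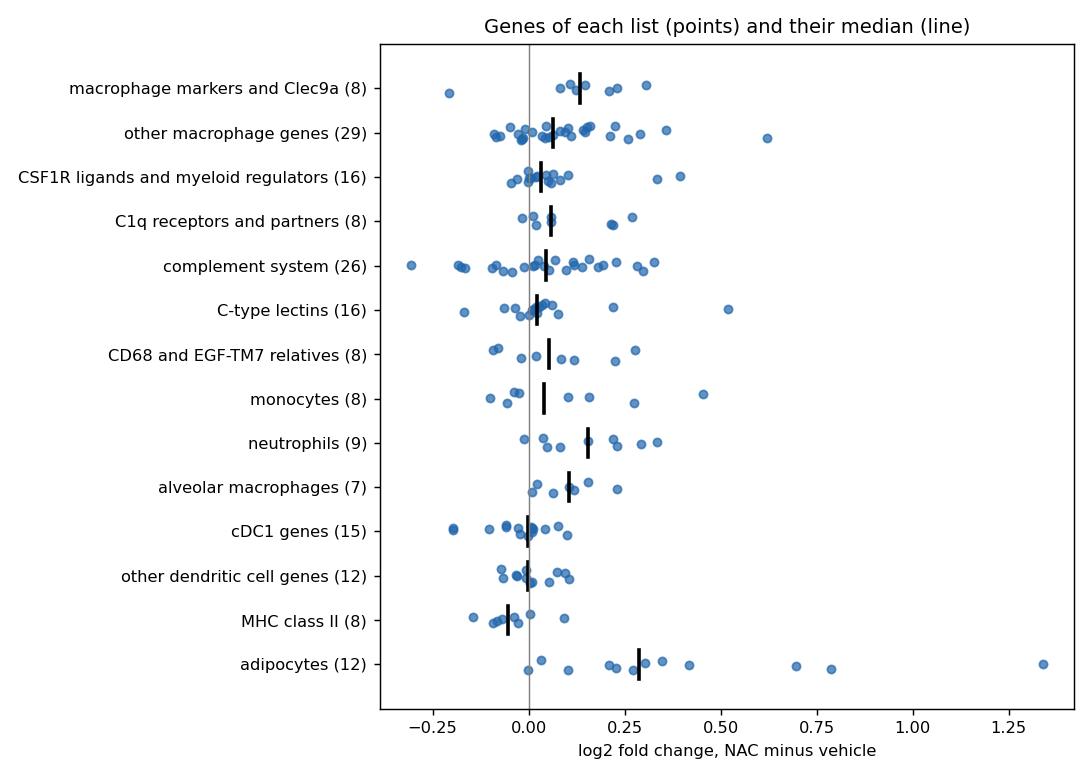
The x axis gives the log2 fold change, NAC minus vehicle, of every measured gene (point) of each list on the y axis, with the number of genes in brackets and the median as a black line. The markers described here have a median of 0.13, between the medians of neutrophil genes (0.15) and genes of alveolar macrophages (0.10), with adipocyte genes at 0.29 and the other lists between -0.05 and 0.06. These larger medians depended on single arrays. Without NAC replicate 3 that of adipocyte genes was 0.0064 and that of alveolar macrophages 0.05. Without NAC replicate 2 that of neutrophil genes was 0.07, and without NAC replicate 1 that of the markers was 0.05.

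Other cDC1 genes were divided in direction. Of 15 measured genes of that cell type, 7 were higher and 8 lower with NAC (median 0.00), and 4 and 11 without NAC replicate 2. Xcr1, the chemokine receptor that marks cDC1, was at 5.79, 5.72, 5.72 and 5.83 with NAC, and at 5.66, 5.65 and 5.86 with vehicle, and its log2 fold change was 0.04 (standard error 0.06). Batf3, a transcription factor needed for cDC1, was at 6.42, 6.50, 6.29 and 6.63 with NAC, and at 6.50, 6.51 and 6.55 with vehicle, with -0.06 (standard error 0.08). For both genes the groups overlapped over most of their range. Both were, like Clec9a, below the 40th percentile of mean expression, among the dim genes.

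Itgax, which encodes CD11c of dendritic cells and some macrophages, was at 5.93, 6.02, 5.86 and 6.08 with NAC, and at 6.21, 6.27 and 6.03 with vehicle, with a difference (log2 fold change) of -0.20 (standard error 0.08). Only NAC replicate 4 reached into the vehicle range. Tlr3, a sensor of double-stranded RNA that cDC1 hold at high level, had -0.20 (standard error 0.10), and the signalling genes Clnk and Btla had 0.10 (standard error 0.07) and 0.08 (standard error 0.07). Itgax, Clnk and Btla were among the dim genes too. Itgax had the only unadjusted p under 0.05 in this list of 15, where 4.41% of all genes had one, with an adjusted p of 0.827 from limma. Of 12 genes of other dendritic cells, 6 were higher and 6 lower (median 0.00), and 3 and 9 without vehicle replicate 1. Of 8 genes of MHC class II presentation, 2 were higher and 6 lower (median -0.05), but 4 and 4 without vehicle replicate 4 (median -0.0008), and Cd74, the invariant chain, had -0.15 (standard error 0.08).

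The markers were then compared by their profile over the 7 arrays, which share 1 normalization. Of the 28 pairs of markers, C1qa and C1qc had Pearson's r = 0.886 (exact permutation p = 0.010, adjusted over the 28 pairs 0.100) and Spearman's rho = 0.739 (exact permutation p = 0.067, adjusted 0.207). Without the 2 arrays farthest from the median of C1qa, r was 0.720. C1qa and Adgre1 had r = 0.896 (exact permutation p = 0.079) and rho = 0.411 (exact permutation p = 0.373), and r = -0.018 without NAC replicate 1, so that this relation rested on that array. Without the 2 arrays farthest from the median of C1qa, its r with Adgre1 was 0.289. Over the 28 pairs the smallest adjusted p was 0.100, so that 0 pairs passed. Clec9a had r from -0.66 to -0.04 with the other 7 markers, which includes the difference between the groups. Within the groups its r was from -0.28 (C1qb) to 0.40 (Adgre1). Mrc1 also differed in profile from the other macrophage markers, with r from -0.45 (Adgre1) to 0.20 (C1qb). Within the groups the r of Mrc1 with them was from -0.76 (Adgre1) to -0.22 (C1qb), with -0.73 for C1qa.

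Outside the 8 markers, 8380 genes varied more than the median gene, and among them the profile of the 3 C1q genes was most like that of Lair1 (r = 0.972), Kcna5 (r = 0.955) and Pygl (r = 0.955), over 7 arrays. Alox5ap (r = 0.947), Rpl23a (r = 0.939) and Lat2 (r = 0.938) followed. Lair1 is an inhibitory receptor, Alox5ap a partner of 5-lipoxygenase in leukotriene synthesis, Lat2 an adaptor of myeloid and B cells, Pygl the liver form of glycogen phosphorylase, and Kcna5 a potassium channel. Rpl23a is a ribosomal protein gene with near-identical copies, whose signal may be shared. All 6 were highest on NAC replicate 1, for example Lair1 at 6.20 and Pygl at 6.48. The C1q genes they were picked to resemble were highest there too, so this follows from the choice. The profile of Clec9a was most like that of Nfatc3 (r = 0.952), Tapbp (r = 0.950), R74862 (r = 0.949) and Spats2 (r = 0.948). Nfatc3 is a transcription factor of the calcineurin pathway and Tapbp a chaperone of MHC class I loading. Their log2 fold changes were -0.14 and -0.15 (standard error 0.04 and 0.05). These differences also follow from the choice, since Clec9a was lower on every NAC array than on any vehicle array. The r values of likeness are the highest among 8380 genes over 7 arrays, and none was tested.

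**Figure D4:**
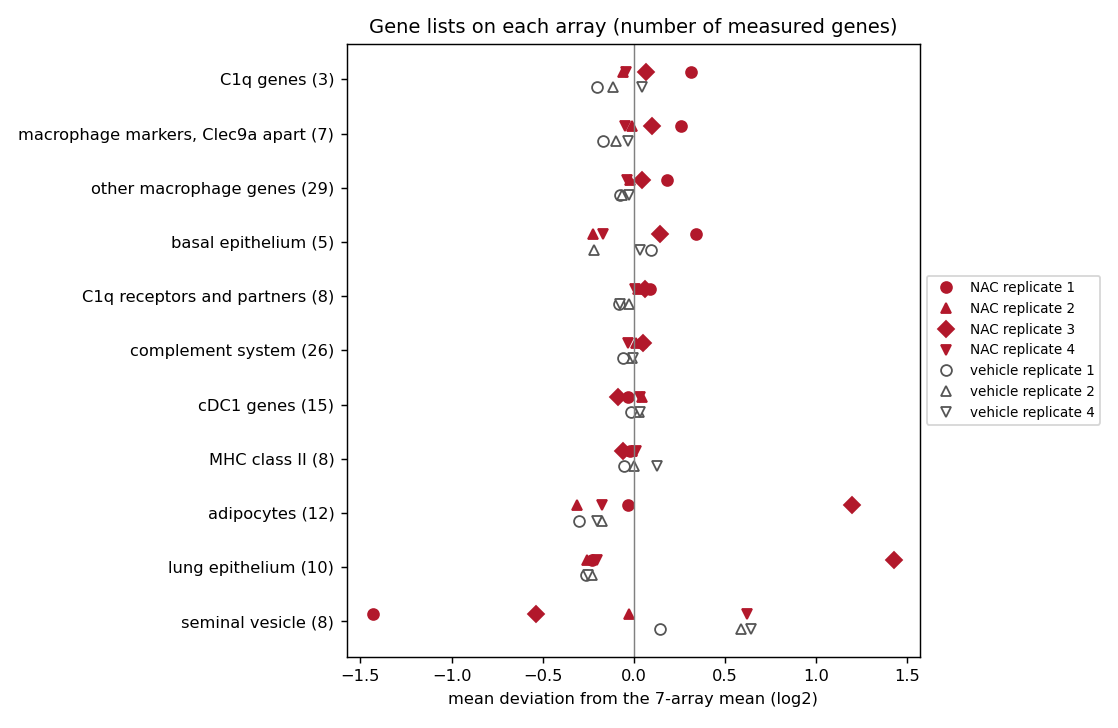
Along the x axis stands the average log2 deviation of each list from its 7-array mean, along the y axis the list with its number of genes, with NAC arrays filled and red in the upper row of each list (n = 4) and vehicle arrays open and grey in the lower row (n = 3), and a symbol for each replicate. NAC replicate 1 is highest in the C1q genes at 0.31 and basal epithelial genes at 0.34, and lowest in the seminal vesicle list at -1.43, and NAC replicate 3 is highest in adipocyte and lung genes.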

How the data were processed

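The deposited table holds 20696 probe sets as log2 values for 7 arrays. They are RMA values made by the authors with affy, which puts all arrays on 1 distribution and gives 1 median-polished value per probe set from its perfect-match probes. The notes of the submitters name affy, RMA and limma, and 1 of the 4 vehicle arrays did not pass quality control. Such normalization removes overall shifts between arrays and can give several arrays the same value, as for 40.0% of genes on at least 3 arrays.

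Probe sets were named through the platform annotation, with symbols updated by Entrez identifier (18922 found in RefSeq, GRCm38.p6). Left out were 678 probe sets with more than 1 gene and 1068 with no gene given here, and the probe set of highest mean was kept for each gene. The table has 0 value columns without a sample. NAC and vehicle were compared over 18938 genes by a two-sided moderated test without covariates (limma 3.58.1 under R 4.3.3), with Benjamini-Hochberg adjustment over all genes and calls at an adjusted p under 0.05. Each array is 1 mouse, and p-values measure the spread between these mice, whose cages and litters are not given. In 10 simulated data sets of the same size with 200 changed genes, 72.7% of changes of 0.5 log2 units were recovered, 95.4% of 1 and 99.5% of 2 and 10.1 unchanged genes were called on average. These rates are those of simulated arrays. The log2 fold changes of the markers, from -0.21 (Clec9a) to 0.31 (Mrc1), were all smaller in size than 0.5. Recovery at such sizes was not tested.

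List members were matched by exact symbol. The genes and lists were chosen with earlier results of these data known. The genes named are the 8 markers, the direct partners of their products, up to 4 genes per described list with the smallest unadjusted p, and the 6 and 4 genes most like C1q and Clec9a by Pearson's r among genes of more than median SD. Predicted genes, clones, olfactory receptors and immunoglobulin segments were passed over. Genes high on NAC replicate 1 were named after their values were seen. Correlations used SciPy 1.17.1 under Python 3.11.15. The array number limits the precision of all values, and no batch is given in the labels.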

Additional observations from a re-analysis of the deposited data

Results flagged for a closer look

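Among 57 named genes, the highest or lowest NAC array was set far apart from the other 3 by Dixon's test for 12 genes, where chance gives about 1 in 20 groups and values shared by arrays add to it. On NAC replicate 1 these were Alox15 at 8.82, Saa3 at 7.13, Itgb2 at 7.44, Vsig4 at 5.13, Pygl at 6.48, Alox5ap at 7.67 and Lat2 at 7.03. On NAC replicate 4 they were Cfb at 7.25, C8a at 5.72 and Clnk at 5.53. Trem2 was set apart on NAC replicate 3 at 7.67 and Cd33 on NAC replicate 2 at 7.66. The genes set apart on NAC replicate 1 were named for being high there or for likeness to C1q, which was highest there. The count of 12 can therefore not be read against the rate of 1 in 20. None of the 8 markers was set apart by this test, although Adgre1 reached 7.91 on NAC replicate 1, where the highest of the other NAC arrays had 6.95.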

How the results depend on the processing

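The comparison was repeated in 15 ways. The arrays were weighted by quality, centred on their medians or quantile normalized again, the variance was fitted robustly with a trend, dim genes were removed, genes were summarized by the median of their probe sets or probe sets kept apart, the replicate number was made a block, and each array was left out. Over 836 combinations of a named gene and an alternative, the log2 fold change kept its direction and its side of the threshold in 832 and turned in 4, all without NAC replicate 1. There Adgre1 was at -0.0331 (range over fits without 1 array from -0.0331 to 0.36), Alox15 at -0.14 (-0.14 to 0.67), Cd5l at -0.07 (-0.07 to 0.42) and Itgb2 at -0.0028 (-0.0028 to 0.22). Over the fits without 1 array, 0 to 1 genes were called by limma, the 1 gene being Crip1 without NAC replicate 4 (log2 fold change -1.15, adjusted p = 0.033). Of the 8 markers, 6 to 7 were higher with NAC and their median was 0.05 to 0.20 over the same fits. Clec9a is dim and has no value where dim genes are removed. The same holds for other named genes, among them Xcr1, Batf3, Itgax, Clnk, Btla, Clec4e, Lamp5, C8a, Lair1, Prg4, Saa3, Cd5l and Vsig4. Same-numbered arrays had correlations of 0.212, 0.286 and -0.067 between their deviations, of which 1 is not over 0.1, so these data do not show that the numbers pair the mice. With the replicate as a block 0 genes were called, 7 of the 8 markers were higher with a median of 0.13, and Clec9a was at -0.21. In that fit NAC replicate 3 has no partner and adds nothing to the difference.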
